A study of Mus musculus with 12 samples.

Results

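The enzymes that add and remove acetyl and methyl groups on histones were followed across liver tissue of male C3H/HeN mice. In the arsenite line the grandmothers had drunk sodium arsenite in pregnancy, and in the control line they had not. The members were taken by name, not by any measured value: probes of the array whose gene name begins with Hdac, Sirt, Kdm, Prmt, Setd or Kat followed by a digit, together with Ezh1, Ezh2, Eed, Suz12, Ehmt1, Ehmt2, Suv39h1, Suv39h2, Dot1l, Ep300 and Crebbp. This gave 102 of 55681 probes and 66 of 34797 gene names. A gene was tested where, in 1 group or more, each of the 3 arrays had a probe of it well above background, which held for 61 of the 66 names. Hdac2, Hdac9, Kdm4d, Kdm5d and Prmt8 were not well above background in this sense and have no tested value. Kat2b-ps, a pseudogene, is among the 61 because the name rule takes it in.

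The arrays measured total RNA from 12 liver samples, 3 in each of 4 groups. In the arsenite line, F0 females drank sodium arsenite at 85 ppm while pregnant, between day 8 and day 18 of gestation, and the F1 and F2 animals had none. F1 males and females were mated at 10 weeks, and their F2 sons were studied at 74 weeks. The arsenite line gave tumours, non-tumour tissue and tissue labelled normal, whereas the control line, whose F0 females had plain tap water, gave non-tumour tissue. Normal and tumour tissue of the control line, which the study's description also names, was not analysed here. The sources used here do not say whether a non-tumour sample and a tumour came from the same mouse, or that the 3 samples of a group came from 3 litters, so every p-value reflects only how these samples vary, which may be technical.

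Acetyl groups on histone tails are written by acetyltransferases such as the Kat enzymes, Ep300 and Crebbp, and removed by the zinc-dependent Hdac enzymes and the NAD-dependent sirtuins. Methyl groups on lysine are written by SET domain enzymes and Dot1l and removed by the flavin-dependent Kdm1 and the iron-dependent JmjC demethylases, and methyl groups on arginine are written by the Prmt enzymes. The polycomb repressive complex PRC2, made of Ezh1 or Ezh2 with Eed and Suz12, methylates lysine 27 of histone H3. Ehmt1, Ehmt2, Suv39h1 and Suv39h2 methylate lysine 9. In the liver these enzymes are known for their part in metabolic gene control and in the altered chromatin of hepatocellular tumours.

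Values are log2 signals relative to the 75th percentile of each array, and a difference of 1 is a 2-fold difference. A gene is called where limma's Benjamini-Hochberg adjusted p over all 18112 genes tested is under 0.05. The level of a probe depends on its sequence, so levels are compared between samples and not between genes. The tumours stood apart from the rest: arrays of tumours correlated with other arrays at 0.905 to 0.933 over all genes, against 0.986 to 0.993 among the 9 arrays outside tumours. All 3 tumours were on a slide of their own, as were the 3 arsenite normal samples, so that slide and group cannot be told apart in either tumour comparison. The arsenite and control non-tumour samples shared a slide.

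For 4 members the probe that stands for the gene holds a short tandem repeat, and these are among the members with the largest rises in tumours. The lines give 30 of the 60 bases of each probe, 5′ to 3′, with the repeat in capitals, and then the stretch of the second Ehmt1 probe, which has no such repeat.
Ehmt1, repeat probe: GTGTGTGTGTGaGTGTGTGTGactcttcta
Suv39h2: ttcgggGTGTGTGTGTcTGTGTGTGTGTGT
Hdac7: aagaaagagtatttgtgtgtaTGTGTGTGT
Crebbp, repeat probe: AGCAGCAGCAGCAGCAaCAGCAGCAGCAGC
Ehmt1, second probe: ccacacgctatgatgatgatgaataaactc
On mm9, the build of the array's annotation, the probes lie on the minus strand at chr2:24646395-24646454 (Ehmt1), chr2:3373186-3373245 (Suv39h2), chr15:97623208-97623267 (Hdac7), chr16:4084710-4084769 (Crebbp) and chr2:24646765-24646824 (second Ehmt1 probe). Exon and UTR placement was not determined here.

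Of the tested probes with the letters GTGTGTGT most, though not all, were called higher in tumours. The array has 306 such probes that belong to no member, and 233 of them were tested. In tumours against arsenite non-tumour tissue 176 of the 233 were called higher (75.5%) and 15 lower, with a median difference of 1.23, whereas 16.4% of all 24140 probes were called higher and their median was −0.12. With a run of alternating G and T of 8 to 9 bases 42.4% of 59 probes were called higher, with 10 to 12 bases 69.6% of 69, and with 13 or more 98.1% of 105. The median differences were 0.43, 1.36 and 1.35 in this order. The longest run is 9 bases in the Hdac7 probe, 11 in the Ehmt1 probe and 13 in the Suv39h2 probe. The letters of the other strand, ACACACAC, went with lower values: 57 of 106 probes were called lower and 17 higher, with a median of −0.52. Of 25 tested CAGCAGCAG probes outside the members 8 were called higher and 6 lower, and of 46 CTGCTGCTG probes 1 was called higher and 29 lower. What RNA these probes bound was not tested. The motifs were chosen after the values were seen, and the counts describe these arrays only.

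**Figure D1:**
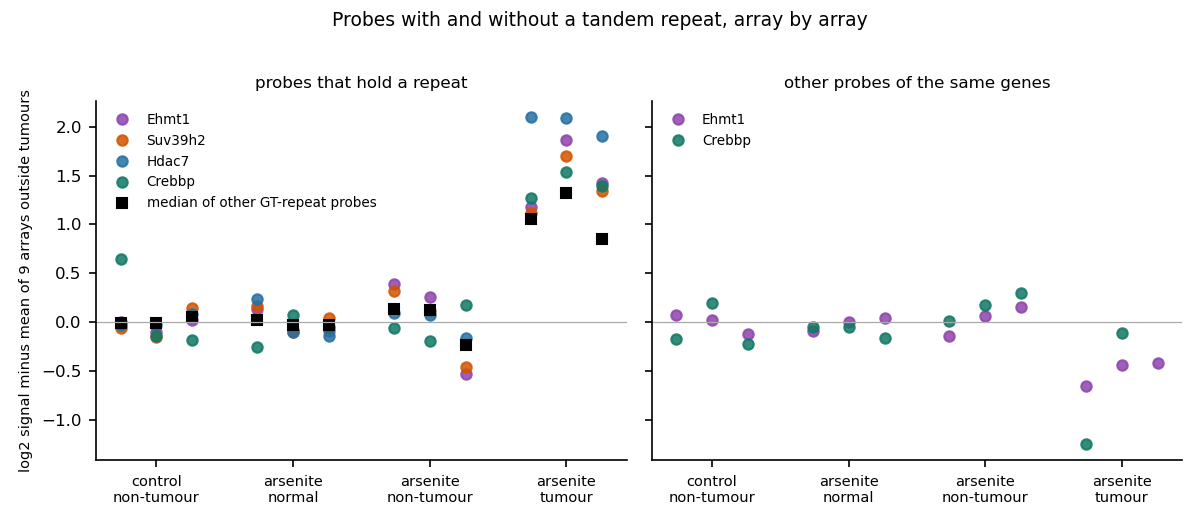
Log2 signal of each array (points) minus the mean of the 9 arrays outside tumours, for the 4 members' probes that hold a tandem repeat (left, with the median of 233 other GT-repeat probes as black squares) and for the other tested probes of the same genes (right; tumour 3 has no Crebbp point because its spot was marked as an outlier). In all 3 tumours the repeat probes and the median of the unrelated GT-repeat probes lie above the other arrays, whereas the second Ehmt1 probe lies below them.

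The 2 probes of Ehmt1 differed in opposite directions. The Ehmt1 repeat probe stood at 6.19, 6.05 and 5.26 in arsenite non-tumour tissue and at 6.98, 7.66 and 7.22 in tumours. The median of the 233 unrelated GT-repeat probes was 3.63, 3.62 and 3.27 in the same non-tumour samples and 4.56, 4.82 and 4.35 in the same tumours. In non-tumour tissue both were lowest in replicate 3, and among tumours both were highest in replicate 2. The same replicates were lowest and highest for Kdm4b and Setd7, whose probes hold no such repeat, so this order is not particular to repeat probes. The second Ehmt1 probe stood at 1.93, 2.14 and 2.23 in non-tumour tissue and at 1.42, 1.63 and 1.66 in tumours, below every non-tumour value, a difference of −0.54 ± 0.11 (SE; limma adjusted p over probes = 0.0025). The repeat probe of the same gene differed by 1.45 ± 0.23 in the other direction (limma adjusted p = 0.00051). In the control line the signals were 5.80, 5.70 and 5.82 for Ehmt1. The direction of Ehmt1, a lysine 9 methyltransferase, is therefore opposite on its probes.

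Crebbp, the acetyltransferase CBP, also had opposite calls. Its repeat probe stood at 3.41, 3.28 and 3.64 in arsenite non-tumour tissue and at 4.74, 5.01 and 4.86 in tumours, a difference of 1.43 ± 0.21 (limma adjusted p = 0.00027), with no overlap. In the control line 1 sample read 4.12 and the other two 3.33 and 3.29. The other Crebbp probe stood at −2.26, −2.10 and −1.98 in non-tumour tissue and at −3.52 and −2.39 in the 2 tumours with a value, a difference of −0.85 ± 0.28 (limma adjusted p over probes = 0.032). It was well above background in only 1 tumour, so its level in tumours is poorly measured.

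Suv39h2, another lysine 9 methyltransferase, read 7.05, 6.84 and 6.27 in arsenite non-tumour tissue and 7.85, 8.43 and 8.07 in tumours on its GT-repeat probe, a difference of 1.39 ± 0.20 (limma adjusted p = 0.0003). Its other probe was not well above background on the arrays of any group. Hdac7, a class IIa deacetylase, read 0.69, 0.67 and 0.44 in non-tumour tissue and 2.70, 2.69 and 2.51 in tumours on its only probe, a difference of 2.03 ± 0.12 (limma adjusted p = 8.3e-07). All 3 tumours lay above every other array for Hdac7, whose probe has the shortest run. No second tested probe bears on the rise of Hdac7 or Suv39h2. The control samples read 6.67, 6.58 and 6.87 for Suv39h2 and 0.57, 0.57 and 0.68 for Hdac7.

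Of the 61 members 14 were called higher and 12 lower in arsenite tumours against arsenite non-tumour tissue, 42.6% in all, against 47.1% of all genes (17.1% higher, and 5430 of the 18112 genes lower). Against arsenite normal tissue 12 were called higher and 17 lower, 47.5% in all, against 48.1% of all genes (17.2% higher and 31.0% lower). The members' share was thus near that of all genes in both. The median difference over the tested members was −0.07 and −0.06, beside −0.13 and −0.15 over all genes. Both comparisons use the same 3 tumours and are given side by side. The tumours lay outside the range of the other group for 35 members in the first comparison (56.5% of all genes did so) and for 34 in the second (58.8% of all genes).

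Without probes that hold GTGTGTGT, ACACACAC, CAGCAGCAG or CTGCTGCTG, an alternative added after the values were seen, 59 members were tested. Then 10 were called higher and 14 lower against non-tumour tissue, and 8 higher and 18 lower against normal tissue. Of the 17857 genes tested in this way 2925 were called higher and 5359 lower against non-tumour tissue. Against normal tissue 2931 were called higher and 5533 lower. The share of higher calls also moved with the scaling. Taking the 75th percentile over the probes detected on all arrays raised the median difference of all genes. The rise was 0.16 against non-tumour and 0.14 against normal tissue. The members' calls became 17 higher and 10 lower against non-tumour tissue, and 17 higher and 8 lower against normal tissue. Of all genes 4419 were then called higher and 3878 lower, and 4130 higher and 4118 lower, in the same order. Shifting by the median raised the median difference of all genes by 0.22 against normal tissue. It gave 14 members higher and 5 lower there, beside 3731 of all genes higher and 2539 lower. Calls of small differences are to be read against these shifts. No called member changed direction under any of the 5 scaling and background alternatives.

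The members with a called difference of at least 2-fold against non-tumour tissue were 9 (18.1% of all genes): 7 higher, of which Hdac7, Ehmt1, Crebbp and Suv39h2 rest on repeat probes, and 2 lower, Sirt3 and Sirt7. Prmt2, Prmt6 and Kdm4b are the other higher members, and Prmt6 passed the filter on dim probes only through the tumours.

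**Figure D2:**
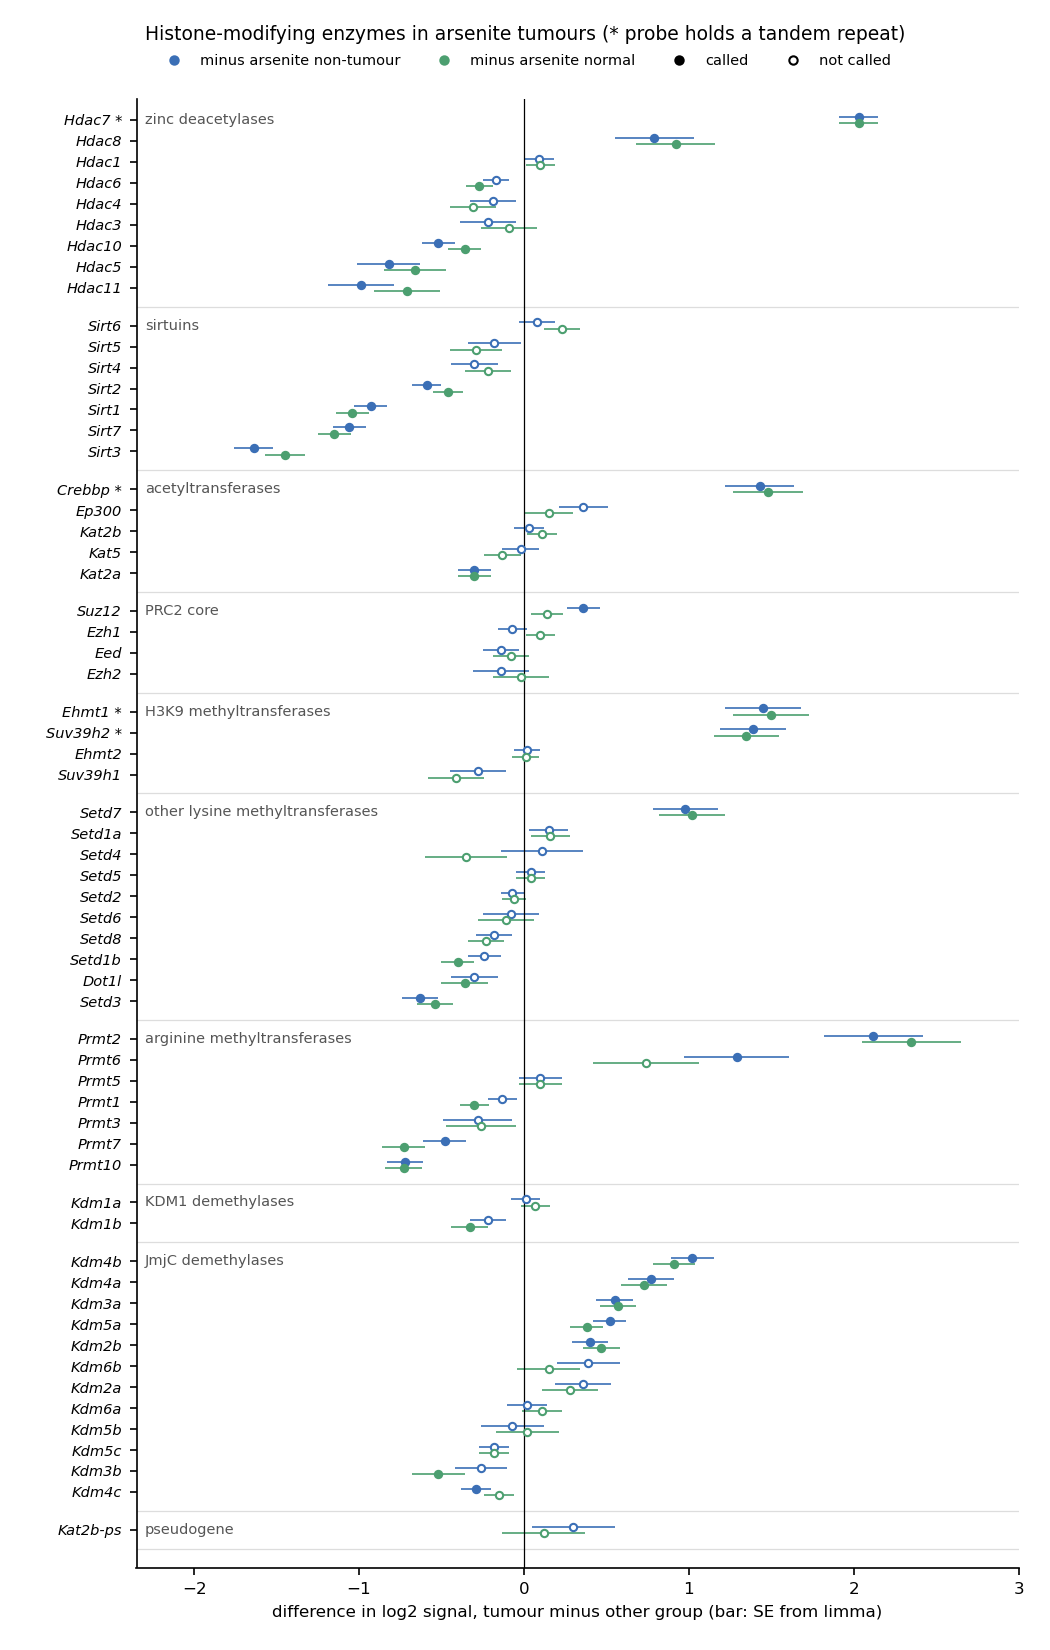
Difference in log2 signal (x axis) for each of the 61 tested members (rows, ordered by role), arsenite tumour minus arsenite non-tumour (blue) and minus arsenite normal (green), with limma's standard error as bars and called differences as filled points. The sirtuins hold the most negative values, down to −1.64 for Sirt3, and the most positive is 2.35 for Prmt2; asterisks mark the 4 members whose probe holds a tandem repeat.

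Sirtuins use NAD to remove acetyl and other acyl groups. Of the 7, Sirt3, Sirt7, Sirt1 and Sirt2 were called lower in tumours in both comparisons, and none was called higher. Over all genes 5430 of 18112 were called lower against non-tumour tissue and 31.0% against normal tissue. The median over the 7 was −0.59 against non-tumour tissue and −0.46 against normal tissue. Sirt3, the main deacetylase of mitochondria, read 5.92, 5.95 and 5.98 in arsenite non-tumour tissue, 5.81, 5.69 and 5.80 in arsenite normal tissue and 4.25, 4.11 and 4.59 in tumours. All 3 tumours lay more than 1 unit below every other array, including the control values of 6.05, 5.97 and 5.95. Sirt3 fell by 1.64 ± 0.12, or 3.11-fold, against non-tumour tissue (limma adjusted p = 2.4e-06) and by 1.45 ± 0.12 against normal tissue (limma adjusted p = 5.8e-06).

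Sirt7, a nucleolar sirtuin tied to ribosomal RNA transcription, read 4.65, 4.81 and 4.49 in non-tumour tissue, 4.74, 4.75 and 4.74 in normal tissue and 3.47, 3.60 and 3.69 in tumours. The tumours again lay below all 9 other arrays. It fell by 1.06 ± 0.10, or 2.09-fold, against non-tumour tissue (limma adjusted p = 1.4e-05) and by 1.15 ± 0.10 against normal tissue (limma adjusted p = 8.9e-06). All 3 Sirt7 probes were called lower, with differences of −1.06, −0.98 and −0.95 against non-tumour tissue. Control non-tumour values were 4.65, 4.62 and 4.70 for Sirt7.

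Sirt1, a nuclear deacetylase of histones and of transcription factors, read 1.04, 0.95 and 0.77 in non-tumour tissue and 0.00, −0.06 and 0.02 in tumours. The 3 tumours lay below every other array. Sirt1 fell by 0.93 ± 0.10 against non-tumour tissue (limma adjusted p = 4.6e-05) and by 1.04 ± 0.10 against normal tissue at 0.94, 1.04 and 1.10 (limma adjusted p = 2.4e-05). Sirt2, mostly cytoplasmic and known for deacetylating tubulin, read 3.04, 3.11 and 3.02 in non-tumour tissue and 2.45, 2.40 and 2.55 in tumours. It fell by 0.59 ± 0.09 (limma adjusted p = 0.00037) and, against normal tissue at 2.93, 2.85 and 3.01, by 0.46 ± 0.09 (limma adjusted p = 0.0017). With a shift by the median, the Sirt2 difference against normal tissue was −0.25 and not called (limma adjusted p = 0.27). In the control line the signals were 2.89, 2.97 and 3.13 for Sirt2.

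Mitochondrial Sirt4 and Sirt5 and nuclear Sirt6 were not called, with differences of −0.30, −0.18 and 0.08 against non-tumour tissue and −0.22, −0.29 and 0.23 against normal tissue. The second Sirt4 probe, which is dimmer, was called lower in both comparisons (−0.52 and −0.48), and the second Sirt6 probe was called higher against normal tissue (0.53). Sirt6 against normal tissue was called higher under 3 other scalings or background corrections, with values from 0.24 to 0.44, and without tumour 1 (0.34, limma adjusted p = 0.024).

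**Figure D3:**
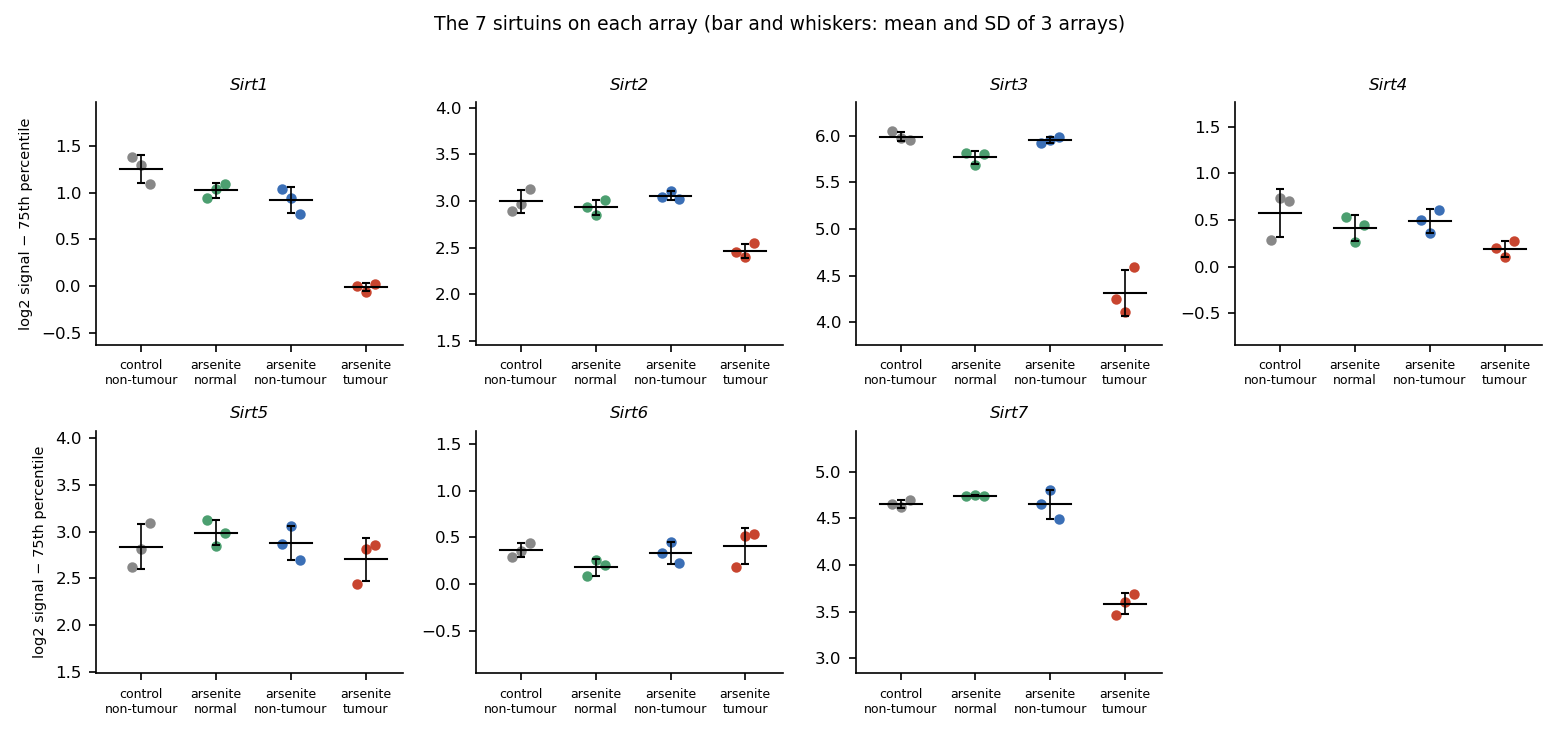
Log2 signal relative to the array's 75th percentile for the 7 sirtuins, with each of the 12 arrays as a point and the mean and SD of 3 arrays as bar and whiskers; every panel spans the same height of the log2 scale. Tumour points of Sirt1, Sirt2, Sirt3 and Sirt7 lie below all other points, and those of Sirt5 and Sirt6 overlap the other groups.

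Promoter sequences are shown for Sirt3 and Sirt7 because these are the sirtuins that fell most. RefSeq's promoter table (GRCm38.p6) held 300 bases, 250 before and 50 after the start, for 56 of the 66 members. Letters GGGCGG, or CCGCCC for the other strand, are in capitals.
Sirt3, chr7:140881820-140882119, minus strand: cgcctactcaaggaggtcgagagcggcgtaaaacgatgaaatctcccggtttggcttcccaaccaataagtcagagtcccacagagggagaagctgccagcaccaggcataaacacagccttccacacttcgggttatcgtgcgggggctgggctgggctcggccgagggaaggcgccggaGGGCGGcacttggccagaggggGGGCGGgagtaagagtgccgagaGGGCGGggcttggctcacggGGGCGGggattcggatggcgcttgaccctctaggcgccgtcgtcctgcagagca
Sirt7, chr11:120624965-120625264, minus strand: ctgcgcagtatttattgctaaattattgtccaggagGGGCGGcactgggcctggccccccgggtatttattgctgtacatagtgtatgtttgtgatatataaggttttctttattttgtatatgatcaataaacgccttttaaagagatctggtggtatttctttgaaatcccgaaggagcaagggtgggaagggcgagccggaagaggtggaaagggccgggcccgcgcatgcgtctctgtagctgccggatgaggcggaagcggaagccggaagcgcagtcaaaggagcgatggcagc
The motif occurs 4 times in the printed Sirt3 window, 0 times in the window of its other start, once in that of Sirt7, 7 times in that of Sirt1 and 1 time in that of Sirt2. Among the sirtuins that were not called, Sirt5 has 1, Sirt6 has 1 in 1 of its 2 windows and Sirt4 has 0. Of 32851 promoter windows of this length 35.7% hold the motif. CCAAT, or ATTGG, is in the windows of Sirt2, Sirt5 and one of the Sirt3 starts, beside 37.4% of all windows.

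Of the 9 tested zinc-dependent deacetylases 2 were called higher, Hdac8 and, on its repeat probe, Hdac7, and 3 lower against non-tumour tissue, where 17.1% of all genes were called higher and 5430 of 18112 lower. Against normal tissue the same 2 were called higher and 4 lower, where 17.2% of all genes were called higher and 31.0% lower. The lower ones were Hdac11, Hdac5 and Hdac10, with Hdac6 against normal tissue alone. Hdac11, the class IV enzyme, read 0.86, 0.71 and 0.96 in arsenite non-tumour tissue, 0.65, 0.38 and 0.65 in normal tissue and 0.14, −0.66 and 0.07 in tumours. The groups did not overlap, and tumour 2 was lowest. It fell by 0.99 ± 0.20 against non-tumour tissue (limma adjusted p = 0.002) and by 0.71 ± 0.20 against normal tissue (limma adjusted p = 0.013), where the call was lost with a shift by the median (−0.50, limma adjusted p = 0.13). Hdac5, a class IIa enzyme that binds MEF2 factors, read 4.75, 4.68 and 4.72 in non-tumour tissue and 4.10, 3.63 and 3.97 in tumours. It fell by 0.82 ± 0.19 (limma adjusted p = 0.0049) and, against normal tissue at 4.87, 4.26 and 4.57, by 0.66 ± 0.19 (limma adjusted p = 0.015). The Hdac5 call against normal tissue was lost without normal sample 1 (limma adjusted p = 0.06) or tumour 2 (limma adjusted p = 0.059). It was also lost under quantile normalization (−0.49, limma adjusted p = 0.075) and with a shift by the median (−0.45, limma adjusted p = 0.16). The percentile over detected probes removed it as well (−0.52, limma adjusted p = 0.052). The control samples read 0.74, 0.96 and 0.61 for Hdac11 and 4.65, 4.83 and 4.24 for Hdac5.

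Hdac10, known as a polyamine deacetylase, read 1.66, 1.71 and 1.73 in non-tumour tissue and 1.08, 1.11 and 1.35 in tumours, below all 9 other arrays. It fell by 0.52 ± 0.10 (limma adjusted p = 0.002), and its second probe was called lower as well, at −0.46. Against normal tissue it fell by 0.36 ± 0.10 (limma adjusted p = 0.015), a call that was lost without normal sample 2 (limma adjusted p = 0.05), tumour 1 (limma adjusted p = 0.052) or tumour 2 (limma adjusted p = 0.053). It was also lost with a shift by the median (−0.14, limma adjusted p = 0.54) and with the percentile over detected probes (−0.22, limma adjusted p = 0.075). Hdac8, a class I enzyme that deacetylates cohesin, read −1.99, −2.11 and −1.54 in non-tumour tissue and −1.26, −0.76 and −1.23 in tumours. It rose by 0.79 ± 0.24 against non-tumour tissue (limma adjusted p = 0.019) and by 0.92 ± 0.24 against normal tissue at −2.25, −2.17 and −1.59 (limma adjusted p = 0.0093). Control non-tumour values were 1.56, 1.62 and 1.84 for Hdac10 and −2.15, −1.88 and −1.51 for Hdac8.

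The Hdac8 call against non-tumour tissue was lost with the replicate number as a block over the 6 arrays (limma adjusted p = 0.062), and without non-tumour sample 1 (limma adjusted p = 0.058), non-tumour sample 2 (limma adjusted p = 0.069) or tumour 2 (limma adjusted p = 0.073). Its second probe gave 0.38 there, not called. Hdac1 and Hdac3, the class I enzymes of the Sin3, NuRD and nuclear receptor corepressor complexes, were not called: Hdac1 differed by 0.09 ± 0.09 and 0.10 ± 0.09, and Hdac3 by −0.22 ± 0.17 and −0.09 ± 0.17. Hdac1 was called higher in both comparisons under quantile normalization (0.24 and 0.23) and with the percentile over detected probes (0.25 and 0.24). Hdac3 was called lower against non-tumour tissue without non-tumour sample 1 (−0.43, limma adjusted p = 0.024). Class IIa Hdac4 differed by −0.19 and −0.31 and was not called. Under normexp background correction Hdac4 was called lower against normal tissue (−0.27, limma adjusted p = 0.037). Hdac6, the tubulin deacetylase, fell by 0.27 ± 0.08 against normal tissue, with the 3 tumours at 2.93, 2.88 and 2.81 below all 9 other arrays and a normal mean of 3.15 (limma adjusted p = 0.015). This call was lost under 4 scaling or background alternatives and without normal sample 1 or tumour 3 (limma adjusted p = 0.051 each). Against non-tumour tissue Hdac6 differed by −0.17 ± 0.08 (limma adjusted p = 0.093).

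Of the 5 acetyltransferases, Kat2a was called lower and Crebbp, on its repeat probe, higher. This was 40.0% of the 5 in each comparison, beside 47.1% and 48.1% of all genes. Kat2a, the GCN5 subunit of SAGA and ATAC, read 1.36, 1.16 and 1.22 in non-tumour tissue, 1.23, 1.23 and 1.28 in normal tissue and 0.99, 0.88 and 0.96 in tumours. It fell by 0.30 ± 0.10 in each comparison (limma adjusted p = 0.028 in both). In the control line the signals were 1.06, 1.29 and 1.38 for Kat2a. The call was lost with the replicate block over 6 arrays against non-tumour tissue (limma adjusted p = 0.068), under 4 scaling or background alternatives against non-tumour tissue, and without any of several single arrays. Against non-tumour tissue these arrays were non-tumour 1 (limma adjusted p = 0.1), non-tumour 3 (0.052), tumour 2 (0.086) and tumour 3 (0.053); against normal tissue they were normal 1, 2 and 3 (0.058, 0.058 and 0.08), tumour 2 (0.083) and tumour 3 (0.053). Ep300, the close relative of Crebbp, differed by 0.36 ± 0.15 and 0.15 ± 0.15 and was not called. Against non-tumour tissue it was called higher without non-tumour sample 1 (0.52, limma adjusted p = 0.0079). It was also called higher there with the percentile over detected probes (0.52, limma adjusted p = 0.015). Kat2b and Kat5 differed by between −0.13 and 0.11.

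Of the PRC2 core 1 of 4 genes, Suz12, was called against non-tumour tissue (47.1% of all genes were) and 0 of 4 by limma against normal tissue (48.1% of all genes). Ezh2, its catalytic subunit in dividing cells, read −0.66, −0.90 and −0.79 in arsenite non-tumour tissue, −0.82, −1.03 and −0.87 in normal tissue and −0.63, −0.75 and −1.38 in tumours. The groups overlapped, and tumour 3 was lowest of all. The difference was −0.14 ± 0.17 against non-tumour tissue and −0.02 ± 0.17 against normal tissue (limma adjusted p = 0.53 and 0.94). The control samples read −0.71, −0.63 and −0.76 for Ezh2. The proliferation marker Mki67 rose in the same tumours by 3.67 against non-tumour and 4.20 against normal tissue, and all 7 tested of 10 listed proliferation markers were called higher in both comparisons. Of these 7, Top2a, Cdk1, Ccnb1, Plk1 and Ccna2 passed the filter on dim probes only through the tumours, and Aurkb, Bub1 and Kif11 did not pass it, so the count is a description. Mki67 was lowest in tumour 3 among the tumours, at 0.98 beside 2.19 and 2.90.

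Suz12 read 0.52, 0.76 and 0.68 in non-tumour tissue and 1.04, 1.07 and 0.94 in tumours. It rose by 0.36 ± 0.10 (limma adjusted p = 0.0096). This call was lost with the replicate block over 6 arrays (limma adjusted p = 0.059) or a shift by the median (0.29, limma adjusted p = 0.13). Suz12 differed by 0.14 ± 0.10 from normal tissue at 0.94, 0.88 and 0.81. With the percentile over detected probes it was called higher against normal tissue (0.28, limma adjusted p = 0.047). Eed, the subunit that binds methylated lysine 27, differed by −0.14 and −0.08, and Ezh1, the catalytic subunit of non-dividing cells, by −0.07 and 0.10, neither called. Ezh1 was called higher against normal tissue under quantile normalization (0.23) and with the percentile over detected probes (0.24). The lysine 9 enzymes without a repeat probe were not called: Ehmt2, the G9a partner of Ehmt1, differed by 0.02 ± 0.08 and 0.01 ± 0.08, and Suv39h1 by −0.28 ± 0.17 and −0.41 ± 0.17. Ehmt2 was called higher in both under quantile normalization (0.30 and 0.28). Suv39h1 was called lower against normal tissue under normexp background correction (−0.28) and quantile normalization (−0.42) and without tumour 2 (−0.53) or non-tumour sample 2 (−0.41), and lower against non-tumour tissue without the latter (−0.44, limma adjusted p = 0.046).

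**Figure D4:**
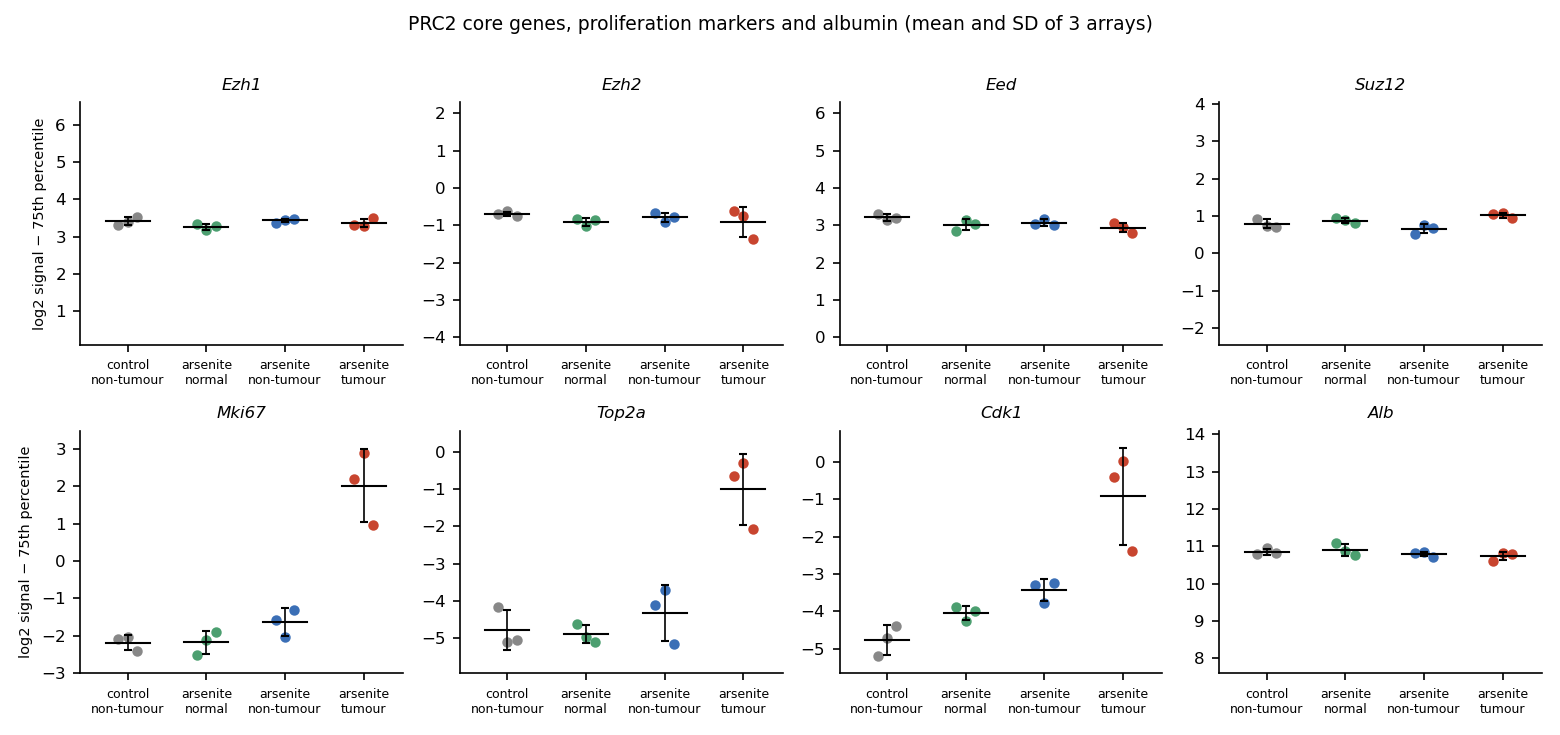
Log2 signal relative to the array's 75th percentile for the PRC2 core genes (top) and for the proliferation markers Mki67, Top2a and Cdk1 and the hepatocyte gene Alb (bottom), with 12 arrays as points and the mean and SD of 3 arrays as bar and whiskers; panels span the same height of the log2 scale. Mki67 in tumours lies between 0.98 and 2.90, above all other arrays, whereas Ezh2 in tumours lies between −1.38 and −0.63 and overlaps the other groups.

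Of the 10 other lysine methyltransferases 1 was called higher and 1 lower against non-tumour tissue. In that comparison 17.1% of all genes were called higher and 5430 of 18112 lower. Against normal tissue 1 was called higher and 3 lower, where 17.2% of all genes were called higher and 31.0% lower. Calls in either direction covered 47.1% and 48.1% of all genes in this order, a larger share than in this class. Setd7, which places a single methyl group on lysine 4 of histone H3 and on other proteins, read −0.04, −0.22 and −0.40 in non-tumour tissue, −0.45, −0.17 and −0.18 in normal tissue and 0.38, 1.22 and 0.68 in tumours. All 3 tumours lay above the 9 other arrays. It rose by 0.98 ± 0.20 (limma adjusted p = 0.0021) and by 1.02 ± 0.20 (limma adjusted p = 0.0016). Setd3, now known as the actin histidine methyltransferase, read 4.18, 4.30 and 4.42 in non-tumour tissue, 4.20, 4.25 and 4.20 in normal tissue and 3.54, 3.57 and 3.93 in tumours.

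Setd3 fell by 0.63 ± 0.11 (limma adjusted p = 0.0011) and by 0.54 ± 0.11 (limma adjusted p = 0.0028). Its second, dimmer probe gave 0.22 and 0.47 in the other direction, not called, and the mean of both probes gave −0.20 and −0.04, not called. With a shift by the median the Setd3 call against normal tissue was lost (−0.33, limma adjusted p = 0.1). Control non-tumour values were −0.12, −0.41 and −0.34 for Setd7 and 4.40, 4.29 and 4.30 for Setd3. Setd1b, a catalytic subunit of a COMPASS complex, read 2.28, 2.53 and 2.51 in normal tissue and 1.97, 2.02 and 2.11 in tumours and fell by 0.40 ± 0.10 (limma adjusted p = 0.0091), but its second probe was called higher against non-tumour tissue, at 0.50, where the first gave −0.24, and the mean of both gave −0.03 against normal tissue, not called. The Setd1b call was also lost with a shift by the median (−0.19, limma adjusted p = 0.28) and with the percentile over detected probes (−0.27, limma adjusted p = 0.068). Dot1l, the lysine 79 methyltransferase, read 2.09, 2.40 and 2.28 in normal tissue and 1.98, 1.97 and 1.74 in tumours and was just past the threshold, with −0.36 ± 0.14 (limma adjusted p = 0.049); the call was lost under 19 alternatives, among them the omission of control sample 2 or 3, normal sample 2 or 3, non-tumour sample 1 or 2, or any tumour (limma adjusted p from 0.05 to 0.16). Against non-tumour tissue Dot1l differed by −0.30, called without non-tumour sample 3 (−0.40, limma adjusted p = 0.049). Setd1a, Setd2, the lysine 36 trimethylase, Setd4, Setd5, Setd6 and Setd8, which is Kmt5a and methylates histone H4 at lysine 20, were not called, with differences from −0.35 to 0.16 over both comparisons.

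Among the 7 tested arginine methyltransferases Prmt2 and Prmt6 were called higher and Prmt7 and Prmt10 lower against non-tumour tissue. That is 57.1% of the 7, beside 47.1% of all genes. Prmt2, known as a coactivator of nuclear receptors, read −1.03, −1.10 and −0.89 in non-tumour tissue, −1.05, −1.46 and −1.22 in normal tissue and 1.20, 1.29 and 0.84 in tumours. In the control line 1 sample stood at 0.21 and the other two at −0.93 and −1.22, still below every tumour. Prmt2 rose by 2.12 ± 0.30, or 4.34-fold, against non-tumour tissue (limma adjusted p = 0.00027) and by 2.35 ± 0.30, or 5.1-fold, against normal tissue (limma adjusted p = 0.00014). Its single probe holds none of the 4 repeats.

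Prmt6, which methylates arginine 2 of histone H3, was dim: it was well above background in 2 samples of each other group and in all 3 tumours. It read −3.91, −2.90 and −2.70 in non-tumour tissue and −1.97, −1.76 and −1.93 in tumours, a difference of 1.29 ± 0.32 (limma adjusted p = 0.0076), and its second probe gave 1.23. Prmt6 passed the filter on dim probes only through the tumours, where it is high, so its call is a description and supports nothing further. Against normal tissue at −2.98, −2.02 and −2.86 the difference was 0.74 ± 0.32 (limma adjusted p = 0.084), called without normal sample 2 (1.03, limma adjusted p = 0.024) or non-tumour sample 1 (0.74, limma adjusted p = 0.03). Prmt6 was also called higher there under normexp background correction (0.26), a shift by the median (0.95), the percentile over detected probes (0.87) and the replicate block over 6 arrays (0.74). Prmt10, now named Prmt9, which methylates a splicing factor, read 2.69, 2.65 and 2.66 in non-tumour tissue, 2.61, 2.70 and 2.72 in normal tissue and 1.75, 1.96 and 2.12 in tumours. It fell by 0.72 ± 0.11 (limma adjusted p = 0.00029) and by 0.73 ± 0.11 (limma adjusted p = 0.00027), and the tumours lay below all 9 other arrays. In the control line the signals were −2.89, −2.93 and −2.47 for Prmt6 and 2.54, 2.54 and 2.76 for Prmt10.

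Prmt7, which makes monomethylarginine, read 3.40, 3.36 and 3.24 in non-tumour tissue, 3.45, 3.64 and 3.65 in normal tissue and 2.78, 2.90 and 2.87 in tumours. It fell by 0.48 ± 0.13 (limma adjusted p = 0.0096) and by 0.73 ± 0.13 (limma adjusted p = 0.00087). The second Prmt7 probe, much dimmer, gave 0.09 and 0.13 and was not called, and the mean of both probes was not called either (−0.20 and −0.30). The control samples read 3.22, 3.33 and 3.71 for Prmt7. Prmt1, the main asymmetric dimethylase, read 3.18, 3.28 and 3.11 in normal tissue and 2.92, 2.91 and 2.83 in tumours and fell by 0.30 ± 0.09 (limma adjusted p = 0.022), with −0.13 ± 0.09 against non-tumour tissue, not called. The Prmt1 call was lost under 4 scaling or background alternatives and without normal sample 1 (limma adjusted p = 0.05), normal sample 2 (limma adjusted p = 0.079) or tumour 3 (limma adjusted p = 0.064). Prmt5, the main symmetric dimethylase, differed by 0.10 ± 0.13 in each comparison, and Prmt3 by −0.28 and −0.26, the latter called without normal sample 1 (−0.55, limma adjusted p = 0.0057). Under normexp background correction Prmt3 was called lower in both comparisons (−0.24 and −0.29).

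Of the 12 tested JmjC demethylases 5 were called higher and 1 lower in each tumour comparison, with medians of 0.38 and 0.21. Of all genes 17.1% were called higher and 5430 of 18112 lower against non-tumour tissue, and 17.2% higher and 31.0% lower against normal tissue. Kdm4b, which removes methyl groups from lysine 9 of histone H3, read 2.16, 2.14 and 1.82 in non-tumour tissue, 2.10, 2.19 and 2.15 in normal tissue and 2.92, 3.32 and 2.94 in tumours. It rose by 1.02 ± 0.13, or 2.02-fold (limma adjusted p = 0.0001), and by 0.91 ± 0.13 (limma adjusted p = 0.00021). Kdm4a, its paralogue with activity on lysines 9 and 36, read 2.08, 2.16 and 2.20 in non-tumour tissue, 2.23, 2.12 and 2.20 in normal tissue and 2.64, 3.27 and 2.83 in tumours. It rose by 0.77 ± 0.14 (limma adjusted p = 0.0011) and by 0.73 ± 0.14 (limma adjusted p = 0.0016). Tumour 2 was the highest of the 3 for both genes. A dimmer Kdm4a probe gave 0.54 and 0.51, not called. Control non-tumour values were 2.03, 2.09 and 2.11 for Kdm4b and 1.93, 2.10 and 2.01 for Kdm4a.

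Kdm3a, a lysine 9 demethylase induced by low oxygen, read 1.27, 1.29 and 1.27 in non-tumour tissue and 1.95, 1.73 and 1.79 in tumours, above all 9 other arrays. It rose by 0.55 ± 0.11 (limma adjusted p = 0.0022) and, against normal tissue at 1.41, 1.25 and 1.09, by 0.57 ± 0.11 (limma adjusted p = 0.0016). The call against non-tumour tissue was lost with a shift by the median (0.47, limma adjusted p = 0.058). Kdm5a, which demethylates lysine 4, rose by 0.52 ± 0.10 against non-tumour tissue (limma adjusted p = 0.002) and by 0.38 ± 0.10 against normal tissue (limma adjusted p = 0.01). The Kdm5a call against normal tissue was lost with the replicate block over 6 arrays (limma adjusted p = 0.074). The 3 control samples of Kdm5a, at 1.38, 1.40 and 1.40, lay close under the tumours, at 1.41, 1.68 and 1.55, whereas arsenite non-tumour samples stood at 0.93, 1.04 and 1.11.

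Kdm2b, a CpG-binding demethylase and partner of a variant PRC1, read 1.89, 2.03 and 2.04 in non-tumour tissue and 2.40, 2.31 and 2.45 in tumours. It rose by 0.40 ± 0.11 (limma adjusted p = 0.014) and by 0.47 ± 0.11 (limma adjusted p = 0.006). Against non-tumour tissue the call was lost with a shift by the median (0.33, limma adjusted p = 0.13) and without non-tumour sample 1 (limma adjusted p = 0.055), and a second, dim probe gave 0.16, not called. Kdm4c read −0.34, −0.09 and −0.14 in non-tumour tissue and −0.47, −0.54 and −0.43 in tumours and fell by 0.29 ± 0.09 (limma adjusted p = 0.024). The call was lost with the percentile over detected probes (−0.13, limma adjusted p = 0.23), a shift by the median (−0.36, limma adjusted p = 0.088), no filter (limma adjusted p = 0.061) and trended robust eBayes (limma adjusted p = 0.052), with the replicate block over 6 arrays (limma adjusted p = 0.11) and without non-tumour 2 (limma adjusted p = 0.089), non-tumour 3 (0.072) or tumour 2 (0.077). Kdm3b, another lysine 9 demethylase, read −1.44, −1.31 and −1.26 in normal tissue and −2.02, −1.89 and −1.66 in tumours and fell by 0.52 ± 0.16 (limma adjusted p = 0.023). A second Kdm3b probe gave 0.34 there, not called, and the mean of both probes gave −0.09, not called. The call was also lost with a shift by the median (−0.30) and with the percentile over detected probes (−0.38, limma adjusted p = 0.1). Leaving out normal 2, normal 3, tumour 1 or tumour 2 removed it too (limma adjusted p = 0.06, 0.07, 0.078 and 0.06). Under normexp background correction Kdm3b was called lower against non-tumour tissue (−0.32, limma adjusted p = 0.011).

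The lysine 27 demethylases Kdm6a and Kdm6b were not called, at 0.02 and 0.39 against non-tumour tissue and 0.11 and 0.15 against normal tissue. Kdm6b was called higher against non-tumour tissue under normexp background correction (0.41) and without non-tumour sample 1 (0.57). Kdm2a, Kdm5b and Kdm5c differed by between −0.18 and 0.36 and were not called. With the replicate block over all 12 arrays Kdm2a was called higher against non-tumour tissue (limma adjusted p = 0.039), as it was without tumour 3 (0.48, limma adjusted p = 0.046). It was also called higher there under normexp background correction (0.37) and with the percentile over detected probes (0.52). Of the flavin-dependent pair Kdm1a, or LSD1, differed by 0.01 and 0.07, and Kdm1b, at 2.94, 2.86 and 2.93 in normal tissue and 2.39, 2.64 and 2.72 in tumours, fell by 0.33 ± 0.11 (limma adjusted p = 0.037), a call that 14 alternatives removed, among them the omission of control sample 2, non-tumour sample 1, any normal sample, or tumour 1 or 2 (limma adjusted p from 0.05 to 0.12).

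**Figure D5:**
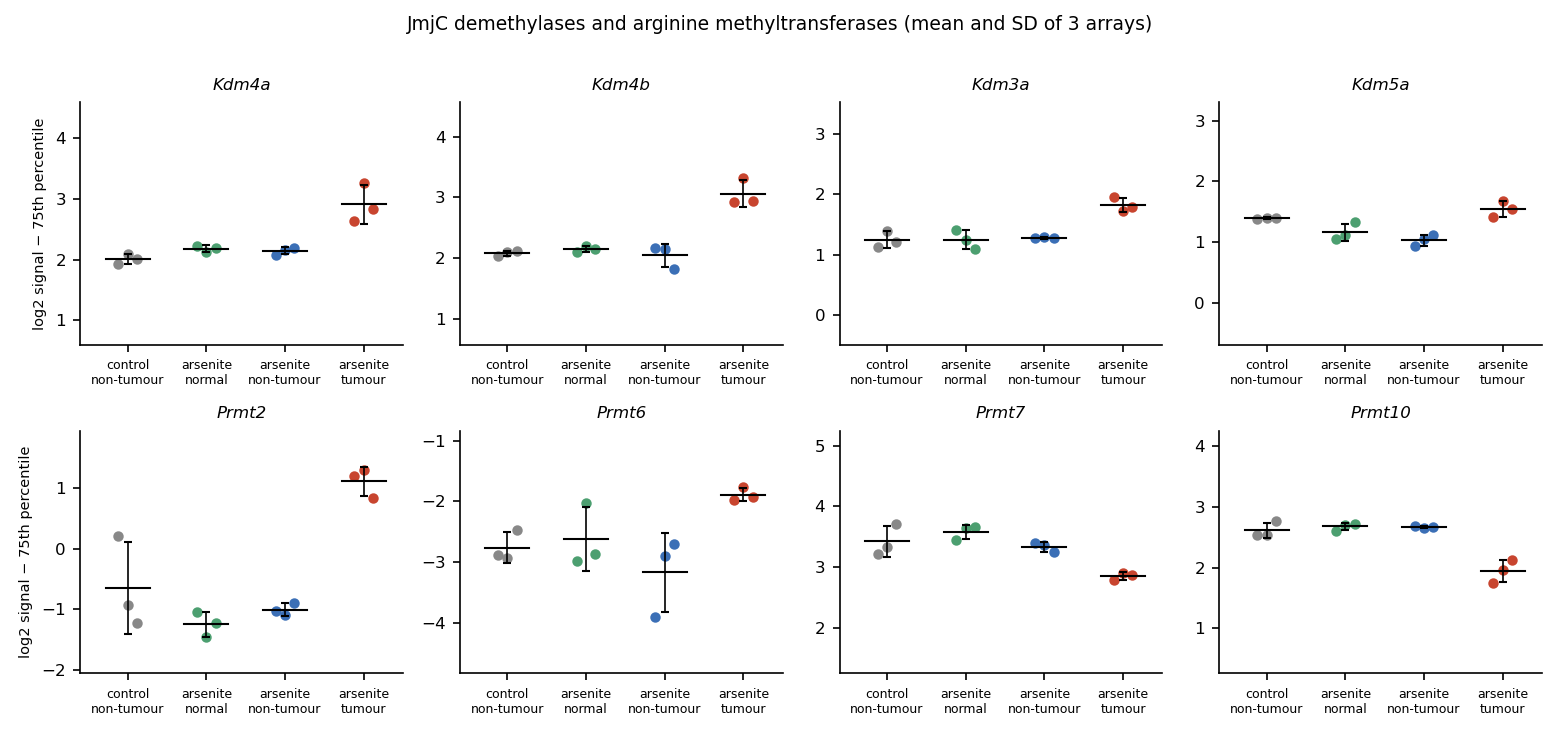
Log2 signal relative to the array's 75th percentile for 4 JmjC demethylases (top) and 4 arginine methyltransferases (bottom), with each of 12 arrays as a point and the mean and SD of 3 arrays as bar and whiskers; every panel spans the same height of the log2 scale. Tumours lie above all other arrays for the demethylases shown and Prmt2 and Prmt6, and below them for Prmt7 and Prmt10; the control values of Kdm5a, from 1.38 to 1.40, are nearest to its tumours.

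Between arsenite and control non-tumour tissue, which lie on 1 slide, 0 of 61 members were called by limma, against 0.00552% of all genes. An unadjusted limma p under 0.05 was found for 3 members and for 1019 of the 18112 genes. The members' differences ran from −0.42 to 0.14. The 3 arsenite samples lay outside the range of the 3 controls for Kdm1a, Kdm5a, Kdm5c, Setd1b, Setd2 and Sirt1, 6 members or 9.84%, near the 10.5% of all genes that did so. Kdm5a differed by −0.36 ± 0.10 and Sirt1 by −0.34 ± 0.10 (limma adjusted p = 0.6 and 0.64), the Sirt1 controls reading 1.38, 1.30 and 1.09. Fits restricted to these 6 arrays, and those with a replicate block, also called 0 members.

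Between arsenite non-tumour and normal tissue 0 of 61 members were called by limma, against 0.0% of all genes. An unadjusted limma p under 0.05 was found for 1 member and for 1237 of the 18112 genes. The members' differences ran from −0.55 to 0.28. For 9 members, 14.8% against 15.2% of all genes, the groups did not overlap: Ezh1, Hdac10, Hdac11, Kdm1b, Prmt1, Prmt7, Sirt2, Sirt3 and Suz12. Sirt3 was higher in non-tumour than in normal tissue by 0.19 ± 0.12 (limma adjusted p = 0.8), beside its fall of more than 1 in tumours. The standard deviation within a group was small, with a median over members of 0.12 to 0.14 in the 4 groups, and the widest spread was that of Prmt2 in control samples, at 0.76.

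Several enzymes of the same families stand in the files under older names and fall outside the name rule. Kat8 (Myst1), an acetyltransferase of lysine 16 of histone H4, fell by 0.23 ± 0.07 against non-tumour tissue and by 0.20 ± 0.07 against normal tissue (limma adjusted p = 0.026 and 0.041). Kat14 (Csrp2bp), of the ATAC complex, fell by 0.35 and by 0.43 (limma adjusted p = 0.015 and 0.005). Kdm7a (Jhdm1d), a demethylase of lysines 9 and 27, rose by 0.68 ± 0.21 and Kdm8 (Jmjd5) fell by 0.36 ± 0.13 against non-tumour tissue (limma adjusted p = 0.022 and 0.042), and neither was called against normal tissue. Kat7 (Myst2), Kat6a (Myst3) and Kat6b (Myst4) were not called.

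Subunits, readers and other writers that work with the members were described from a list. Of 134 tested partner genes 19 rose and 39 fell against non-tumour tissue, and 19 rose and 36 fell against normal tissue, 43.3% and 41.0% beside 47.1% and 48.1% of all genes. Of 25 polycomb partners 7 rose and 4 fell, of 23 genes of deacetylase complexes 1 rose and 6 fell, and of 31 genes of the COMPASS and acetyltransferase complexes 2 rose and 11 fell against non-tumour tissue. In that comparison 17.1% of all genes were called higher and 5430 of 18112 lower. Pcgf2, also called Mel18, a PRC1 subunit, read −2.38, −3.17 and −3.60 in non-tumour tissue and −1.27, −0.66 and −0.98 in tumours, a difference of 2.08 ± 0.31 (limma adjusted p = 0.00031). It was well above background in 1 non-tumour sample, so that its non-tumour level is poorly measured. Pcgf2, Phc1, Hr, Uhrf1 and Mllt3 passed the filter on dim probes only through the tumours, where they are high, and their values are given as a description. Phc1, another PRC1 subunit, was not well above background in non-tumour tissue and was at least 1.81-fold higher in tumours (limma adjusted p = 0.0017). Cbx2, a PRC1 chromodomain subunit, fell by 1.14 ± 0.27 (limma adjusted p = 0.0058).

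Uhrf1, the reader that brings DNA methylation to replicating DNA, differed by 2.51 ± 0.47 (limma adjusted p = 0.0014), from −2.52, −3.43 and −1.85 to −0.12, 0.41 and −0.58. The acetyl-lysine reader Mllt3 differed by 2.07 ± 0.38 (limma adjusted p = 0.0012), and the methyl-lysine reader L3mbtl3 rose by 1.43 ± 0.14 (limma adjusted p = 1.9e-05). The demethylase Hr was not well above background in non-tumour tissue and was at least 3.4-fold higher in tumours (limma adjusted p = 6e-05). An "at least" fold sets the mean of the bright group against the higher, on each array of the dim group, of the probe's own signal and the lowest signal well above background. Naa60 (Nat15), an acetyltransferase of the Golgi, fell by 1.15 ± 0.09 (limma adjusted p = 6.6e-06), and Setdb2, a lysine 9 methyltransferase, by 1.09 ± 0.19 (limma adjusted p = 0.00087). Cbx7, the remaining gene that the naming rule takes, fell by 1.02 against normal tissue (limma adjusted p = 0.029), with −0.19 against non-tumour tissue, not called.

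The makeup of the samples differed beside these results. All 5 hepatocyte markers were well above background in every group, and Alb differed by −0.05 and −0.16, not called. Against non-tumour tissue Cps1 fell by 2.13 and Cyp3a11 by 0.91, Apoa1 rose by 1.17, and Ttr differed by −0.32, not called. Of 7 tested macrophage markers 5 fell against non-tumour tissue, and their summed linear signal, relative to the 75th percentile, was 33.3 to 56.0 in tumours against 87.0 to 116.0 in non-tumour tissue. Of 6 stellate cell markers 4 fell and 1, Col1a1, rose, with sums of 18.3 to 24.0 against 69.1 to 75.7. Most of these sums is Dcn, at 5.97, 6.10 and 5.98 in non-tumour tissue and 3.98, 4.06 and 3.84 in tumours. The sums thus say little about the other stellate markers, of which Col3a1 differed by 0.82, not called. Of 6 endothelial markers 2 fell and 1 rose, with sums of 55.0 to 75.2 against 93.4 to 113.0. The 7 proliferation markers summed to 7.08 to 30.5 in tumours and 1.30 to 2.03 in non-tumour tissue.

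Of the T and NK cell markers Cd4 rose by 1.88 and Nkg7 fell by 0.31, whereas Cd3e differed by −0.09, not called. Their sums were 129.0 to 175.0 in tumours and 31.2 to 58.3 in non-tumour tissue, and without Cd4 they were 7.66 to 8.81 and 9.08 to 10.2. Neither of the 2 tested B cell markers nor of the 2 tested bile duct markers was called, and of 3 neutrophil markers Ly6g fell. Among the defining markers, Cd163, Cd8a, Klrb1c, Ms4a1, Krt7, Epcam and Mpo were not well above background on all arrays of any group. In bulk tissue fewer cells of a type and less RNA per cell cannot be told apart, and the part of cell makeup in the members' differences was not tested.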

How the data were processed

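RNA from 12 liver samples was hybridised to 1-colour (Cy3) Agilent arrays, 1 sample per array. The deposited intensity values are the scanner software's processed signals, background-subtracted by the authors' Feature Extraction run, per the file headers. The authors' value table, used as an alternative, holds the ratio of the processed signal to each array's 75th percentile, as found by comparing it with the deposited signals. Here log2 of the processed signal was taken less the 75th percentile of the array's spots other than controls. Spots of a probe were averaged without those marked as outliers, 24140 probes were kept that passed the scanner software's background test in all 3 samples of some group, and each gene was represented by its brightest probe on average. Precision is limited by 3 arrays per group.

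All 12 arrays were fitted with 1 mean per group (limma 3.58.1, R 4.3.3), moderated by eBayes, with Benjamini-Hochberg adjustment over 18112 genes. The code was tested on simulated data. Members, partner genes and markers were chosen with earlier results of these data known. Members are named by role, with values on each array for called members whose groups do not overlap, in order of the difference (for Hdac6, the tumours only). Of the partner genes up to 10 called ones with the largest difference in either tumour comparison are named. Residuals of same-numbered tumour and arsenite non-tumour samples correlated at 0.15, 0.14 and 0.23, so the replicate number was also fitted as a block; the labels do not say what the number shares, and the other comparisons did not meet this rule.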

Additional observations from a re-analysis of the deposited data

How the results depend on the processing

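Of the 26 members called in tumours against arsenite non-tumour tissue 16 kept the call in each alternative that gave them a value (13 had a value in all 27; Hdac7, Suv39h2 and Prmt6 did not), and of the 29 called against arsenite normal tissue 13 did (11 with a value in all; Hdac7 and Suv39h2 without); the number called ran from 23 to 27 and from 24 to 29 when 1 sample was left out. Without tandem-repeat probes, an alternative chosen after seeing the data, Crebbp became −0.85 and −0.60 and Ehmt1 −0.54 and −0.49 against non-tumour and normal tissue, since another probe then stands for each, and Hdac7 and Suv39h2 were not tested. With at least 2-fold difference required, 9 and 9 members, 9 and 10 partner genes and 3279 and 3260 of all genes were called. Against normal tissue a shift by the median left 19 members and 33 partner genes, beside 3731 of all genes higher and 2539 lower. No filter on dim probes called 14248 genes there. The cause of these changes was not tested. With the replicate number as a block over 6 arrays 22 members were called in each tumour comparison, and 33 partner genes against normal tissue; over all 12 arrays the block gave 27 and 29 members. Against non-tumour tissue the block changed the calls of Hdac8, Kat2a, Kdm4c, Suz12 and Kdm2a and of no other member. Of all genes, arsenite against control non-tumour tissue gave 1 call by limma, 0 under normexp, with probes above background on all 12 arrays, with trended robust eBayes and with the replicate block over 6 arrays, 3 with a shift by the median, 4 in the fit of the 6 arrays of 1 slide, 6 without a filter, and 0 to 6 with 1 sample left out. Arsenite non-tumour against normal tissue gave 0 calls (1237 genes at an unadjusted p under 0.05), and 1 with a shift by the median, with probes above background on all 12 arrays and with trended robust eBayes, and 0 to 1 with 1 sample left out. A slide block could not be fitted for the tumour comparisons, since each slide of tumours or normal tissue holds 1 group. Dim members, such as Prmt6, Hdac8 and the second Crebbp probe, lie near background, which limits their precision.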
